A study of Mus musculus with 6 samples.

Results

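Integrins are the receptors by which cells hold on to the matrix around them and to other cells, and laminins are the cross-shaped proteins that build the basement membrane. The genes were chosen by name, as all integrin alpha and beta chain genes and all laminin alpha, beta and gamma chain genes of the deposited table with a count in any library, leaving out 3 genes of integrin-binding proteins. This gave 39 of 22487 genes, with 19 integrin alpha rows, 8 integrin beta genes, the integrin beta-like gene Itgbl1 and 11 laminin genes. They carry 38 names, since Itgae has 2 overlapping rows. Itgb1 and Lamb1, the genes taken as markers of the group, were present in all 6 libraries.

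The samples were ovaries of adult female rats of the wild-type genotype, 3 with no treatment (controls) and 3 after exposure to cowshed PM2.5, fine airborne particles. A time of 30 days stands in each title with no event it is counted from, and the sources used here name no strain, dose or route. Mouse is the organism entered, yet the titles say rat and all 22487 identifiers are of rat genes in Ensembl. Nothing states that libraries within a group are of different animals, so the p-values speak only of the spread among these samples, which may be technical.

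An integrin is a pair of an alpha and a beta chain, and the alpha chain largely decides which ligand is bound. A laminin is a trimer of an alpha, a beta and a gamma chain that polymerises beneath cells and is held by integrins and by dystroglycan. In the ovary a basal lamina separates the granulosa cells of a follicle from the theca, and further basement membranes lie under the surface epithelium and around blood vessels and smooth muscle. In whole ovary, fewer cells of a type and less RNA per cell cannot be told apart.

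The libraries held 47662338 to 60749578 counts. The expected cell types were present in all 6 libraries, with summed levels of 1674 to 9773 CPM for 9 granulosa markers, 10361 to 32097 CPM for 8 luteal markers and 35.0 to 232 CPM for 9 matched oocyte markers (CPM is a count scaled for the size of its library). Control 3 had the lowest granulosa and the highest luteal sum. The sum of 7 matched markers of surface and tubal epithelium was highest in PM2.5 libraries 1 and 2.

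At the level of single genes, a few chains made up most of the integrin and laminin RNA. Lamb2, the laminin beta chain typical of mature basement membranes, had the highest level, with 138, 135 and 121 FPKM in the controls and 106, 137 and 150 FPKM in the PM2.5 libraries, each in the order 1, 2, 3 as throughout (FPKM is a level per length of transcript). Itgb1, the beta chain that most matrix-binding alpha chains share, followed with 78.7, 102 and 91.6 FPKM in controls and 136, 93.3 and 101 FPKM in PM2.5. Itgb5, which pairs with the alpha chain of Itgav, had 54.6, 57.7 and 38.7 FPKM in controls and 59.8, 61.7 and 77.0 FPKM in PM2.5. At the other end, 10 of the 39 had a mean under 0.5 FPKM over the 6 libraries, which left 29 to be tested.

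**Figure D1:**
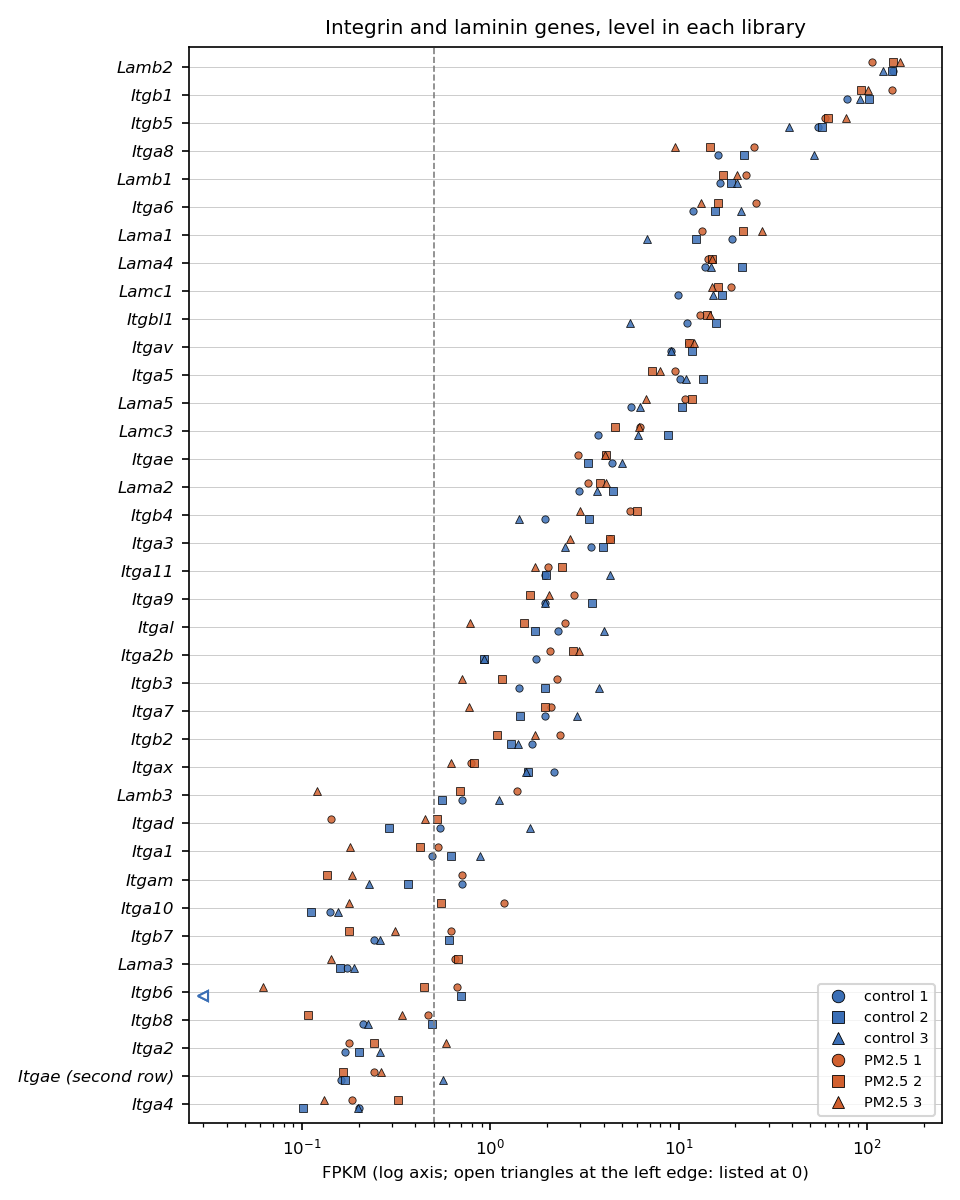
FPKM of 38 of the 39 genes in each library (log axis; blue controls, orange PM2.5, 1 symbol per replicate number, open triangles for genes listed at 0), ordered by mean, with a dashed line at 0.5 FPKM. Lamb2, Itgb1 and Itgb5 have the highest means, though Itga8 lies above Itgb5 in control 3, and 9 of the genes shown have a mean left of the dashed line.

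No integrin or laminin gene passed the test. By the quasi-likelihood test of edgeR, with Benjamini-Hochberg adjustment across the 15303 tested genes, 0 of 29 members had an adjusted p below 0.05, where 0.928% of all tested genes did (0.19% higher and 0.738% lower in PM2.5). At an unadjusted p below 0.05 there were 4 members, or 13.8%, against 20.9% of all tested genes. The groups did not overlap in 4 of the 29, or 13.8%, against 27.2% of all tested genes. Of these 4, Itga2b and Itgb5 were higher and Itga5 and Itgax lower in PM2.5, where 12.1% of all tested genes were higher and 15.2% lower. DESeq2 called 3 members, Itgax, Itga2b and Itgb4, where it called 11.6% of the genes it tested. The median log2 fold change of the members was -0.01, beside 0.00 for all genes, with 14 members above the controls and 15 below, where 50.4% of all tested genes were above. Of those below, Itgad and Itga1 passed the filter only through the controls, as given later. With limma on log2(FPKM + 1) and on log2(FPKM + 0.1) 0 members passed, where 1.02% and 1.18% of all tested genes did. The count was also 0 with edgeR's own filter (0.489% of all genes), without a filter (0.0356%) and with the replicate number as a block (0.00653%). With a library left out it was 0 again, where the share of all genes was 0.0328% (control 2 left out), 0.0196% (control 3), 0.0262% (PM2.5 library 1), 0.0456% (PM2.5 library 3) and 0 (control 1, and likewise PM2.5 library 2).

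The precision of these values differed between members. The 95% interval of the log2 fold change, unadjusted for the number of genes, lay within 1 of 0 for 14 of 29 members, or 48.3%, and for 48.0% of all tested genes. Of the 9 tested laminin genes 6 had such an interval, and of the 20 tested integrin genes 8. The median SE was 0.22 for laminin genes and 0.34 for integrin genes.

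**Figure D2:**
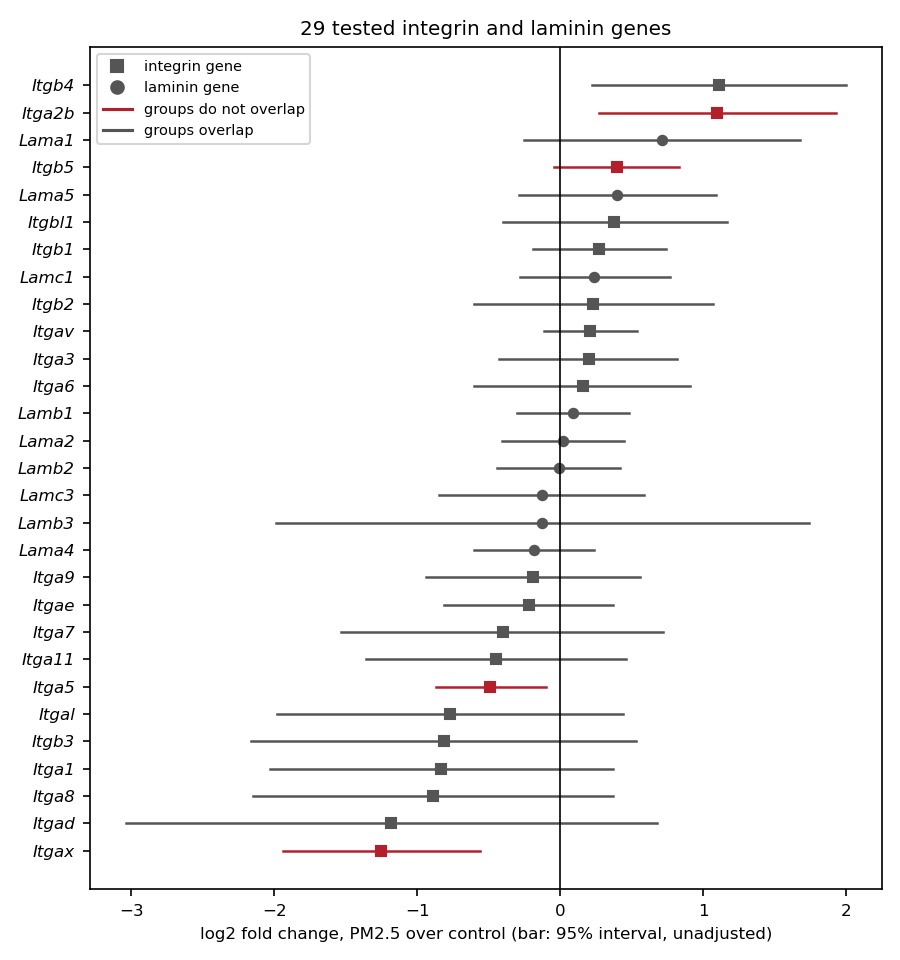
Log2 fold change of PM2.5 over control for the 29 tested members with unadjusted 95% intervals (squares integrins, circles laminins, red where the groups do not overlap). Itgax has the lowest value, -1.25, and Itgb4 the highest, 1.11, and the 9 laminin intervals all include 0.

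Among the laminin alpha chains, Lama1, Lama4 and Lama5 were the most abundant. Lama1 had 227, 141 and 84 CPM in controls and 157, 260 and 325 CPM in PM2.5. Its highest value was in PM2.5 library 3 and its lowest in control 3, and the groups overlapped. The log2 fold change was 0.71 ± 0.41 (SE, n = 3 in each group, as for all fold changes here), with an interval from -0.25 to 1.68 and an edgeR adjusted p of 0.358. It was 1.14 without control 1, 0.43 without control 3 and 0.47 without PM2.5 library 3. The granulosa marker sum had the same lowest and highest libraries, with 7755, 5786 and 1674 CPM in controls and 3392, 8766 and 9773 CPM in PM2.5. Of its 9 genes, Fshr, Amh, Inha and Hsd17b1 had these lowest and highest libraries, and the others did not. Foxl2 and Nr5a2 were highest in PM2.5 library 1, Cyp19a1 in control 2 and Inhbb in control 1, and Fst was lowest in PM2.5 library 1. The sum of the 9 matched oocyte markers was also lowest in control 3 and highest in PM2.5 library 3. It was 115, 147 and 35.0 CPM in controls and 68.2, 117 and 232 CPM in PM2.5. Gdf9, Bmp15, Zp1, Zp2, Zp3, Dazl, Ddx4 and Nlrp5 had both of these libraries, while Figla was highest in control 2. The part of granulosa cells or oocytes in the Lama1 values was not tested.

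Lama4, the alpha chain of vessel walls, had 93.0, 141 and 105 CPM in controls and 95.8, 101 and 101 CPM in PM2.5. Its PM2.5 values lay close together inside the control range (log2 fold change -0.18 ± 0.18, interval -0.60 to 0.24). Lama5, an alpha chain of epithelial and vascular basement membranes, had 71.6, 128 and 83.4 CPM in controls and 138, 150 and 85.1 CPM in PM2.5, with overlapping groups (0.40 ± 0.29, edgeR adjusted p = 0.466). Lama2, the alpha chain of muscle and nerve, had 32.2, 46.7 and 41.7 CPM in controls and 36.0, 41.7 and 44.5 CPM in PM2.5. Its log2 fold change was 0.02 ± 0.18, with an interval from -0.41 to 0.45.

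The order of the alpha chains differed between libraries. Lama1 supplied 46.0%, 25.3% and 21.4% of the summed FPKM of the 5 laminin alpha genes in the control libraries and 31.3%, 41.3% and 51.5% of it after PM2.5. Lama4 made up 33.1%, 44.1% and 46.8% in controls and 33.7%, 28.2% and 28.1% in PM2.5. Lama4 exceeded Lama1 in controls 2 and 3 and in PM2.5 library 1, and Lama1 exceeded Lama4 in the other 3 libraries. These shares are read within a library and carry no test.

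Lamb2 and Lamb1 are the beta chains that most laminins carry. Lamb2 had 902, 847 and 825 CPM in controls and 686, 892 and 976 CPM in PM2.5. Its log2 fold change was -0.01 ± 0.18, with an interval from -0.44 to 0.42. Lamb1 had 128, 141 and 164 CPM in controls and 174, 131 and 156 CPM in PM2.5 (0.09 ± 0.17, interval -0.30 to 0.48). The groups overlapped in both genes, and Lamb2 made up 87.0% ± 1.99 (SD, n = 3) of the beta chain FPKM in controls and 86.0% ± 3.96 in PM2.5.

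Lamc1, the gamma chain of most laminins, had 84.2, 139 and 135 CPM in controls and 160, 137 and 127 CPM in PM2.5. Control 1 was the lowest and the groups overlapped (0.24 ± 0.22, edgeR adjusted p = 0.557, and 0.05 without control 1). Lamc3, a gamma chain of restricted distribution, had 26.9, 61.5 and 45.8 CPM in controls and 44.9, 33.2 and 44.8 CPM in PM2.5 (-0.13 ± 0.30). Control 1 was also the lowest library for Lamc3.

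**Figure D3:**
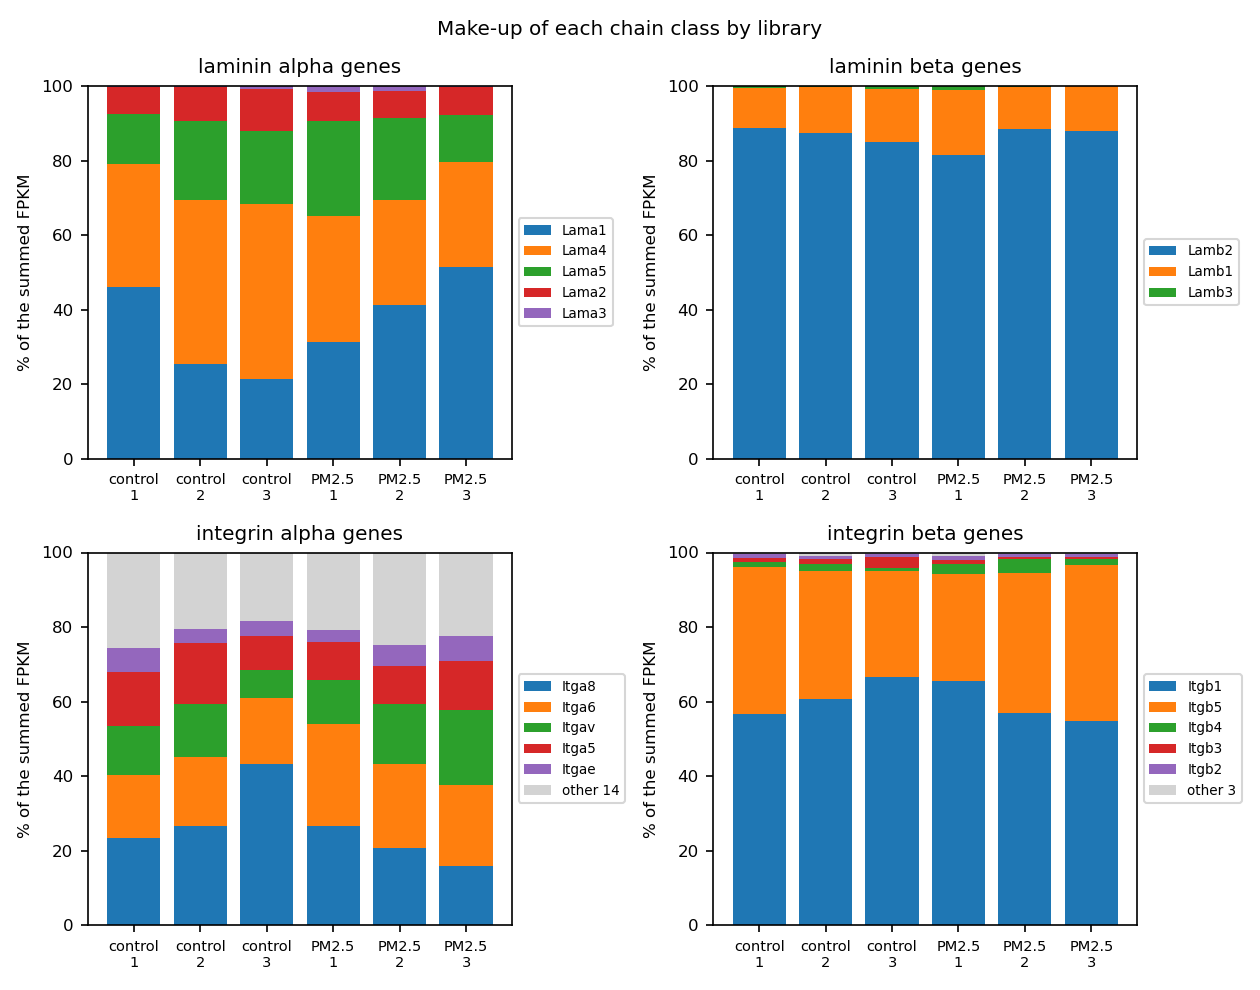
Share of the summed FPKM of each chain class, in percent, in each library (stacked bars; the 5 most abundant genes of a class named, the others grey). Lama1 ranges from 21.4% to 51.5% of the laminin alpha sum, while Lamb2 makes up at least 81.4% of the laminin beta sum in all 6 libraries.

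Lama3 and Lamb3 encode chains of the laminin that anchors epithelia, and Itgb4 encodes the beta chain that binds it from the cell side, paired with the alpha chain of Itga6. Itgb4 had 13.6, 22.5 and 10.3 CPM in controls and 38.0, 41.6 and 20.6 CPM in PM2.5. PM2.5 libraries 1 and 2 were above all controls, and PM2.5 library 3 lay just under control 2. Its log2 fold change was 1.11 ± 0.38, with an unadjusted p of 0.0219 and an edgeR adjusted p of 0.172. DESeq2 called it, with an adjusted p of 0.0477.

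Lama3 had 2.02, 1.79 and 2.28 CPM in controls and 7.52, 7.80 and 1.65 CPM in PM2.5. The high values were in PM2.5 libraries 1 and 2, while PM2.5 library 3 was the lowest of all 6. The gene was under the filter and was not tested, and without the filter its log2 fold change was 1.48 with an edgeR adjusted p of 0.282. Lamb3 followed another order, with 3.21, 2.44 and 5.26 CPM in controls and 6.26, 3.15 and 0.563 CPM in PM2.5 (-0.13 ± 0.79).

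Of the 7 matched epithelial markers, 4 (Epcam, Krt8, Krt18 and Krt7) were higher in PM2.5 libraries 1 and 2 than in the other 4 libraries, as Itgb4 and Lama3 were. The other 3 did not follow this order: Cdh1 and Upk3b were highest in control 2, and Msln was high in PM2.5 library 1 alone. The summed level of the 7 matched markers was 85, 163 and 26.9 CPM in controls and 440, 510 and 69.7 CPM in PM2.5, and none of the 7 was at 0 in any library. Krt8, a keratin of simple epithelia, had 19.8, 40.0 and 10.8 CPM in controls and 138, 174 and 22.7 CPM in PM2.5. The 9 smooth muscle and pericyte markers summed to 1126, 1104 and 895 CPM in controls and to 2223, 3709 and 895 CPM in PM2.5, with none at 0. Of these, Acta2, Myh11, Tagln, Cnn1 and Des were higher in PM2.5 libraries 1 and 2 than in the other 4 libraries. Rgs5, Pdgfrb, Cspg4 and Notch3 did not follow this order and were highest in control 3. The part of these cells in the values of Itgb4 and Lama3 was not tested.

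Itgb4 spans 101206665 to 101243012 of chromosome 10 in the deposited coordinates, for which the sources used here name no build. It overlaps Galk1 on the other strand by 7019 bases. Galk1 had 34.2 to 48.1 CPM in controls and 37.1 to 54.8 CPM in PM2.5, a range shared by the groups.

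Of the alpha chains that bind laminin, Itga6 was the most abundant. It had 82.4, 104 and 154 CPM in controls and 177, 111 and 91.2 CPM in PM2.5, with overlapping groups (0.16 ± 0.32, interval -0.60 to 0.91). Its share of the integrin alpha FPKM was 17.1%, 18.7% and 17.7% in controls and 27.2%, 22.5% and 21.9% in PM2.5. This pattern in the share was noticed after its values were seen, and it carries no test. Itga3 had 14.6 to 21.6 CPM in controls and 15.1 to 24.5 CPM in PM2.5 (0.20 ± 0.26). Itga7, the laminin receptor chain of muscle, had 5.42 to 11.8 and 3.03 to 8.20 CPM (-0.40 ± 0.47), and its locus is overlapped over its whole length by the row of Cd63, so its reads may not be separated from those of Cd63.

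The alpha chains that recognise the RGD motif of fibronectin and vitronectin showed no common direction. Itga5, the fibronectin receptor chain, had 59.2, 76.3 and 67.2 CPM in controls and 55.7, 42.4 and 46.6 CPM in PM2.5. Every PM2.5 value was below every control, by a narrow gap between PM2.5 library 1 and control 1. The log2 fold change was -0.49 ± 0.16, with an interval from -0.87 to -0.10, an unadjusted p of 0.0213 and an edgeR adjusted p of 0.171. Itgav, which binds vitronectin and other RGD ligands, had 74.8, 93.7 and 77.7 CPM in controls and 93.2, 93.7 and 98.8 CPM in PM2.5 (0.21 ± 0.14, interval -0.11 to 0.54). The ratio of Itga5 to Itgav in FPKM was 1.11, 1.15 and 1.22 in controls and 0.841, 0.637 and 0.664 in PM2.5, and this ratio was chosen after its values were seen.

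Itgb5 was the other abundant chain whose groups did not overlap. It had 173, 177 and 128 CPM in controls and 190, 196 and 244 CPM in PM2.5, with control 3 the lowest and PM2.5 library 3 the highest. The log2 fold change was 0.40 ± 0.19, with an interval from -0.04 to 0.83, an unadjusted p of 0.0706 and an edgeR adjusted p of 0.278. These are also the lowest and highest libraries of the granulosa and oocyte marker sums, though not of all their genes, as given above. The part of granulosa cells or oocytes in the Itgb5 values was not tested. Itgb1 had 324, 404 and 393 CPM in controls and 558, 384 and 413 CPM in PM2.5. Its groups overlapped, and PM2.5 library 1 stood above the other 5 (0.27 ± 0.20, edgeR adjusted p = 0.458, and 0.09 without that library).

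Itga8, which pairs with the Itgb1 chain in smooth muscle and mesenchymal cells, had the highest mean FPKM of the RGD-binding alpha chains and a wide range. It had 109, 143 and 364 CPM in controls and 169, 98.9 and 63.8 CPM in PM2.5. Control 3 was the highest and PM2.5 library 3 the lowest, 5.71-fold apart. Its fold change on the log2 scale was -0.89 ± 0.53 and the edgeR adjusted p 0.375. Without control 3 it was -0.18. The 8 luteal markers summed to 15955, 16297 and 32097 CPM in controls and 25223, 13522 and 10361 CPM in PM2.5. This sum had the same highest and lowest libraries, with none of the 8 at 0, but of its genes only Star and Ptgfr did. Cyp11a1, Hsd3b1, Prlr and Scarb1 were highest in PM2.5 library 1, Lhcgr was highest in control 2, and Akr1c3 was lowest in PM2.5 library 1. In the smooth muscle and pericyte list, Rgs5, Pdgfrb and Notch3 were highest in control 3 and lowest in PM2.5 library 3. Cspg4 was highest in control 3 and lowest in PM2.5 library 2, and Acta2, Myh11, Tagln, Cnn1 and Des were highest in PM2.5 library 2. In the endothelial list only Emcn had the highest and lowest libraries of Itga8. The part of luteal, mural or endothelial cells in the Itga8 values was not tested.

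Itga2b encodes the alpha chain of the platelet fibrinogen receptor, which pairs with the Itgb3 chain. It had 8.01, 4.12 and 4.43 CPM in controls and 9.42, 12.6 and 13.5 CPM in PM2.5, so that the groups did not overlap. The log2 fold change was 1.10 ± 0.35, with an interval from 0.27 to 1.93, an unadjusted p of 0.0165 and an edgeR adjusted p of 0.156. DESeq2 called it, with an adjusted p of 0.0345. Itgb3 had 4.19, 5.58 and 11.5 CPM in controls and 6.66, 3.38 and 2.07 CPM in PM2.5 (-0.81 ± 0.57), so the chain pair lay in opposite directions, without either passing edgeR's test.

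Platelet and megakaryocyte markers were near the lower limit. The 8 markers summed to 4.68 to 5.40 CPM in controls and 4.45 to 6.37 CPM in PM2.5, and 6 of them were at 0 in some library. Pf4, the platelet chemokine, had 3.00, 3.41 and 3.18 CPM in controls and 3.37, 2.51 and 3.64 CPM in PM2.5. Gp9, a chain of the platelet receptor for von Willebrand factor, had 0.209, 0.332 and 0 CPM in controls and 0.856, 0.575 and 0.683 CPM in PM2.5, where 3 counts are worth 0.0493 to 0.0626 CPM. The 7 matched erythroid markers, of which 3 rose in edgeR's test, summed to 1041, 783 and 805 CPM in controls and 2730, 3992 and 4258 CPM in PM2.5. The part of blood cells in the Itga2b values was not tested.

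Leukocyte integrins share the beta chain of Itgb2, and their alpha chain genes Itgal, Itgam, Itgax and Itgad lie together on chromosome 1, with Itgam, Itgax and Itgad 10.1 and 19.0 kb apart. Itgax, the CD11c chain of dendritic cells and macrophages, had 12.3, 8.64 and 9.08 CPM in controls and 4.49, 4.63 and 3.5 CPM in PM2.5. Every PM2.5 value was under every control. Its log2 fold change of -1.25 ± 0.29, with an interval from -1.94 to -0.56, had the smallest unadjusted p of the members, 0.00357, and an edgeR adjusted p of 0.097. DESeq2 called it, with an adjusted p of 0.00125. It lies from 182719609 to 182740698.

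The neighbours of Itgax followed other orders. Itgad had 2.23, 1.15 and 7.01 CPM in controls and 0.590, 2.15 and 1.85 CPM in PM2.5 (-1.18 ± 0.79). It passed the filter of 0.5 FPKM only through the controls, with a mean of 0.818 FPKM there and 0.37 FPKM in PM2.5. Itgam, the CD11b chain of myeloid cells, had 3.48, 1.72 and 1.15 CPM in controls and 3.42, 0.674 and 0.904 CPM in PM2.5 and was under the filter. Itgal, the CD11a chain of lymphocytes and other leukocytes, had 11.7, 8.53 and 21.4 CPM in controls and 12.7, 7.71 and 4.0 CPM in PM2.5 (-0.77 ± 0.51). The groups overlapped in all 3 genes. Itgam, Itgax and Itgad encode similar proteins, so reads that fit several of them make these values uncertain.

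The common beta chain did not follow Itgax. Itgb2 had 7.32, 5.46 and 6.41 CPM in controls and 10.2, 4.73 and 7.57 CPM in PM2.5 (0.23 ± 0.35, edgeR adjusted p = 0.744). The FPKM ratio of Itgax to Itgb2 was 1.30, 1.23 and 1.10 in controls and 0.340, 0.759 and 0.357 in PM2.5, a ratio chosen after its values were seen. The 19 matched leukocyte markers summed to 284, 237 and 246 CPM in controls and 311, 180 and 189 CPM in PM2.5, with Cd79b and S100a8 at 0 in some library. Ptprc, the common leukocyte antigen, had 13.9, 12.2 and 14.6 CPM in controls and 10.4, 6.64 and 7.69 CPM in PM2.5, with no overlap (-0.72 ± 0.26, edgeR adjusted p = 0.188). The FPKM ratio of Itgax to Ptprc was 2.43, 1.96 and 1.72 in controls and 1.19, 1.92 and 1.25 in PM2.5, so that this ratio overlapped between the groups. The tested leukocyte markers went both ways, with 7 above the controls and 10 below. Gzmb, the granzyme B of cytotoxic cells, was the marker that fell in edgeR's test (-4.14 ± 0.66, adjusted p = 0.0486). Without overlap, 4 markers were lower in PM2.5, namely Ptprc, Gzmb, Prf1 (-1.44 ± 0.48) and Coro1a (-1.11 ± 0.33). S100a8 was the 1 marker higher without overlap (1.76 ± 1.04). Of all tested genes, 15.2% were lower and 12.1% higher without overlap. DESeq2 called Coro1a, with an adjusted p of 0.0304. Gzmb and Prf1 had PM2.5 means of 0.252 and 0.319 FPKM, under the filter of 0.5 FPKM. The macrophage markers had no common direction. Cd163, Mrc1 and Lyz2 had log2 fold changes of 1.25, 0.51 and 0.02, and Csf1r, Adgre1 and Cd68 had 0.00, -0.38 and -0.45. The part of leukocyte number in the Itgax values was not tested.

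Itgae, whose chain binds E-cadherin on epithelial cells, had 23.6, 17.0 and 27.8 CPM in controls and 15.6, 21.8 and 21.5 CPM in PM2.5, with overlapping groups (-0.22 ± 0.25). Its locus overlaps those of P2rx1, Atp2a3, Camkk1, Ncbp3, Haspin and a second Itgae row, so its reads may not be separated from theirs. Its partner Itgb7 had 0.730 to 1.76 CPM in controls and 0.542 to 1.85 CPM in PM2.5. The second Itgae row had 0.793 to 2.82 CPM in controls and 0.805 to 1.29 CPM in PM2.5. Itga4, which pairs with the chains of Itgb1 or Itgb7 in lymphocyte homing, had 0.410 to 0.886 and 0.563 to 1.38 CPM, and Itga9, a chain similar to it in sequence, had 12, 20.4 and 12.4 CPM in controls and 16.9, 9.89 and 12.5 CPM in PM2.5, with overlapping groups (-0.19 ± 0.32).

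The collagen-binding alpha chains were low in whole ovary. Itga11, the chain of fibroblasts, had 11.1, 10.7 and 25.4 CPM in controls and 11.4, 13.5 and 9.74 CPM in PM2.5, with control 3 apart from the other 5 (-0.45 ± 0.38). Itga1 had 2.19 to 4.05 CPM in controls and 0.804 to 2.34 CPM in PM2.5 (-0.83 ± 0.51), and it contains the row of Pelo on the same strand. Itga1 passed the filter only through the controls, with a mean of 0.664 FPKM there and 0.377 FPKM in PM2.5. Itga10, the chain best known from cartilage, had 0.814, 0.624 and 0.947 CPM in controls and 6.74, 3.15 and 1.02 CPM in PM2.5. Its groups did not overlap, yet PM2.5 library 3 was close to the controls, and the gene was under the filter (log2 fold change 2.2 without it, edgeR adjusted p = 0.202). Itga2 had 0.709 to 1.13 CPM in controls and 0.742 to 2.41 CPM in PM2.5.

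Of all genes under the filter, to which Itga10 belongs, 11.2% had groups that did not overlap. Itgb6, the beta chain of epithelial cells, was listed at 0 in controls 1 and 3 and had 2.09 CPM in control 2, and it had 2.07, 1.40 and 0.201 CPM in PM2.5. A count of 0 there allows up to 0.0626 and 0.0604 CPM, a limit that covers counting error only. Itgb8, a beta chain that binds latent TGF-beta, had 1.5 to 3.36 CPM in controls and 0.772 to 3.31 CPM in PM2.5. Itgbl1, a protein with repeats like those of the integrin beta stalk, had 28.2, 38.6 and 14.7 CPM in controls and 33.1, 36.1 and 37.1 CPM in PM2.5, with control 3 apart from the other 5 (0.38 ± 0.33, and 0.09 without control 3).

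**Figure D4:**
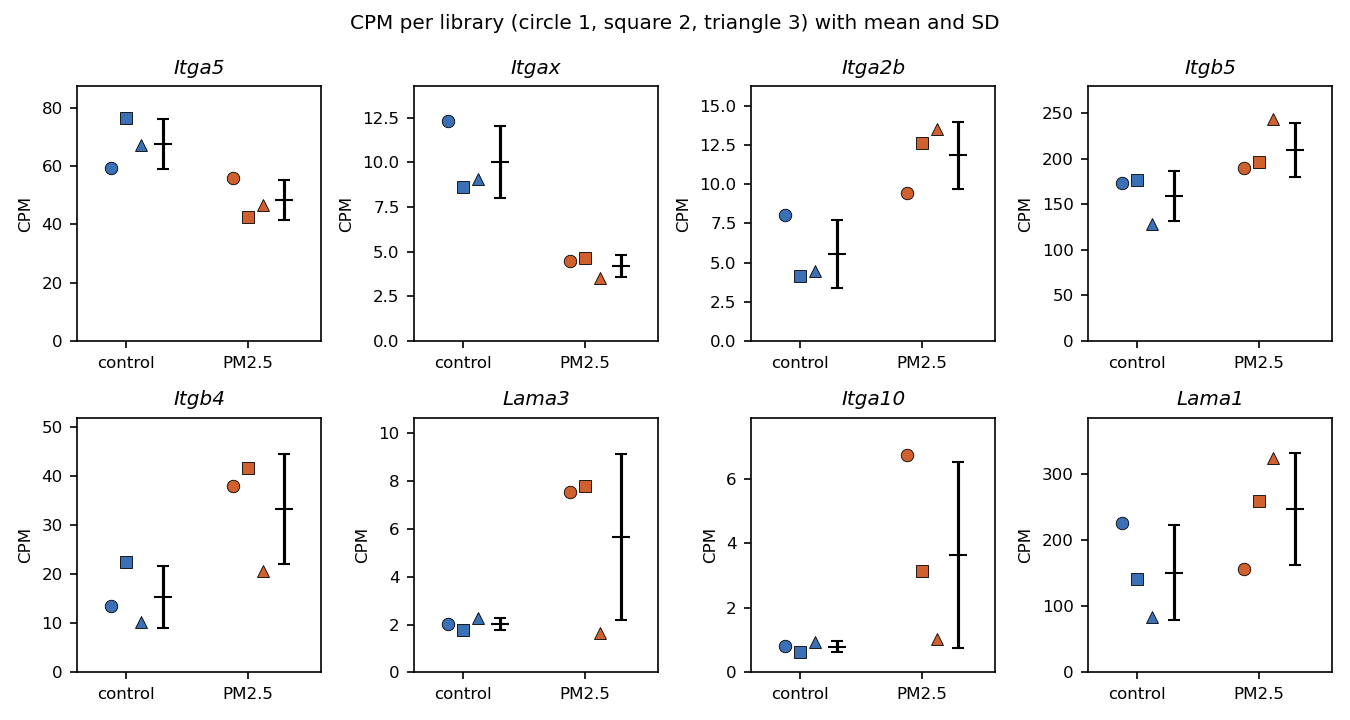
CPM of 8 members in each library, 3 controls and 3 PM2.5 libraries, with mean and SD as bars. The groups do not overlap for Itga5, Itgax, Itga2b, Itgb5 and Itga10, while PM2.5 library 3 falls among the controls for Itgb4 and below them for Lama3, and the Lama1 groups overlap.

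Differences between libraries ran through many members. Control 3 was the highest library for 8 of 29 tested members, Itga8, Itga11, Itga1, Itgb3, Itga7, Itgae, Itgal and Itgad, and PM2.5 library 3 was the lowest for 6 of these 8, the exceptions being Itgae and Itgad. PM2.5 library 3 was the highest for 5 members, Itgav, Itga2b, Itgb5, Lama1 and Lamb2, and control 3 was the lowest for 2 of these, Itgb5 and Lama1. Over all tested genes control 3 was the highest in 24.5% and PM2.5 library 3 the lowest in 16.5%, beside 27.6% of the members in each case. Control 1 was the lowest library for 9 members, or 31.0%, against 13.2% of all tested genes, and 6 of these 9 were laminin genes, Lama4, Lama5, Lama2, Lamb1, Lamc1 and Lamc3. These shares describe the 6 libraries and carry no test.

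**Figure D5:**
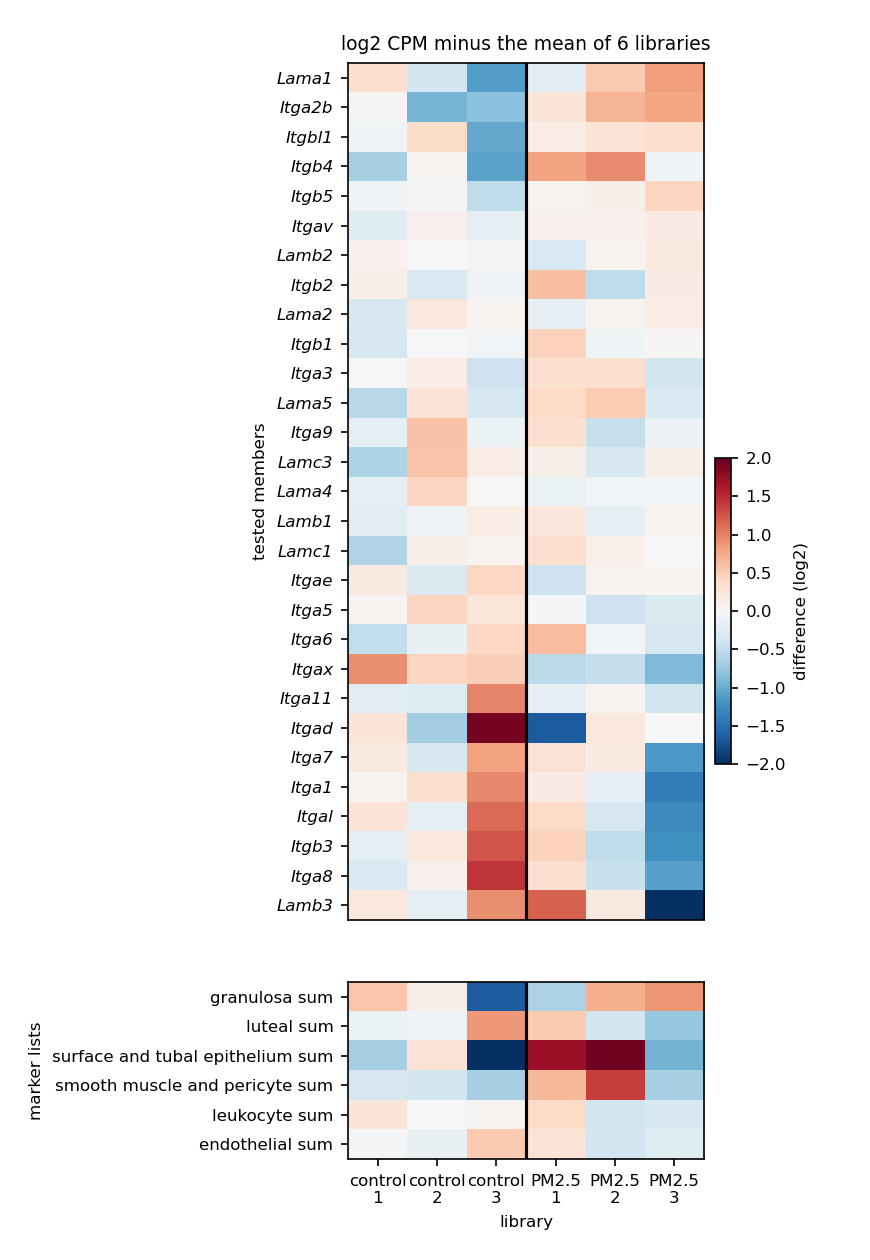
Log2 CPM minus the mean of the 6 libraries for the 29 tested members (top, ordered by the difference between control 3 and PM2.5 library 3) and for the summed CPM of 6 marker lists (bottom); red is above and blue below the mean, and the black line parts controls from PM2.5. Itga8, Itgal and Itgb3 are highest in control 3, where the luteal sum is highest and the granulosa sum lowest.

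The ligands, basement membrane partners and cytoplasmic proteins of these receptors were taken from 3 lists of known partners. Of 85 tested genes 1 fell and none rose in edgeR's test, against 0.928% of all tested genes, and DESeq2 called 11, or 12.9%, against 11.6% of the genes it tested. At an unadjusted p below 0.05 there were 6 of 22 ligands, 9 of 24 basement membrane partners and 6 of 39 cytoplasmic proteins, or 27.3%, 37.5% and 15.4%, against 20.9% of all tested genes. The list medians were 0.17, 0.15 and 0.05. The groups did not overlap in 5, 9 and 8 genes of the lists, or 22.7%, 37.5% and 20.5%, against 27.2% of all tested genes. The genes described next are the 4 with the smallest p of each list, so their lack of overlap comes in part from that choice.

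The gene that fell was Mfge8, whose secreted product carries an RGD motif bound by the Itgav chain with the chains of Itgb3 or Itgb5. It had 235, 302 and 365 CPM in controls and 41.7, 76.7 and 82.7 CPM in PM2.5, with no overlap. Its log2 fold change was -2.17 ± 0.30 and the edgeR adjusted p 0.0434. Leaving out any of the 6 libraries ended this call, with edgeR adjusted p from 0.0706 to 0.230 and log2 fold changes from -2.34 to -1.91. Its receptor chains Itgav and Itgb5 had log2 fold changes of 0.21 and 0.40, given above.

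Among the other ligands, Ccn2, a matricellular protein bound by several integrins, had 186, 224 and 117 CPM in controls and 295, 328 and 493 CPM in PM2.5 (1.08 ± 0.30, edgeR adjusted p = 0.129). Fbln5, an RGD protein of elastic fibres, had 15.9 to 19.2 CPM in controls and 24.4 to 30.4 CPM in PM2.5 (0.70 ± 0.18, edgeR adjusted p = 0.115). Adam15, a membrane protease with an integrin-binding domain, had 38.2 to 47.8 and 51.4 to 68.3 CPM (0.49 ± 0.16). The groups did not overlap in these 3 genes, of which DESeq2 called Ccn2 and Fbln5 and edgeR none.

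Of the basement membrane partners, Col18a1, the source of endostatin, had 230, 343 and 299 CPM in controls and 129, 137 and 159 CPM in PM2.5 (-1.03 ± 0.19, edgeR adjusted p = 0.0629). Dag1, the dystroglycan that binds laminins without an integrin, had 495, 486 and 551 CPM in controls and 852, 723 and 748 CPM in PM2.5 (0.60 ± 0.15, edgeR adjusted p = 0.114). Smoc2, a matricellular calcium-binding protein, had 35.9 to 65.5 CPM in controls and 102 to 131 CPM in PM2.5 (1.19 ± 0.24, edgeR adjusted p = 0.0724). Col4a5, a collagen IV chain, had 75.8 to 112 and 132 to 167 CPM (0.72 ± 0.19). The groups did not overlap in these 4 genes, which DESeq2 called and edgeR did not.

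Of the cytoplasmic and membrane partners, Lims2, an adaptor that joins integrin-linked kinase to the adhesion site, had 12.3, 12 and 9.10 CPM in controls and 27.7, 23.3 and 23.6 CPM in PM2.5 (1.16 ± 0.21, edgeR adjusted p = 0.0591). Ptk2b, the focal adhesion kinase relative PYK2, had 118, 133 and 279 CPM in controls and 61.8, 69.6 and 85.3 CPM in PM2.5 (-1.29 ± 0.35, edgeR adjusted p = 0.123, and -0.79 without control 3). Pxn, the adaptor paxillin, had 99.2 to 117 and 130 to 173 CPM (0.47 ± 0.16). Cd81, a tetraspanin that associates with integrins, had 1.29 to 3.77 CPM in controls and 0.402 to 0.685 CPM in PM2.5 (-2.13 ± 0.53, edgeR adjusted p = 0.112). It passed the filter of 0.5 FPKM only through the controls, with a mean of 0.874 FPKM there and 0.2 FPKM in PM2.5. Its PM2.5 libraries held 20 to 36 counts. The groups did not overlap in these 4 genes, of which DESeq2 called Lims2, Ptk2b and Cd81 and edgeR none.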

How the data were processed

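RNA of ovarian tissue was selected for poly(A), made into libraries marked for strand with dUTP and sequenced from both ends, per the labels' protocols. Tools named in the submitters' processing notes are StringTie 2.1.6, HISAT2 2.2.1, cutadapt 1.9, edgeR and DESeq2, with no role stated. Build, annotation and whether counting used strand are not stated there, so reads of overlapping genes may be mixed. The deposited table gives whole counts and FPKM values per gene, per the file headers. Among values from 1 to 20, the share divisible by 4 was 31.8 to 33.9%, for which no source gives a reason. The FPKM values are the authors' own normalisation and were used for the filter, for levels between genes and in alternatives.

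The counts were tested with edgeR 4.0.16 in R 4.3.3 (TMM factors, glmQLFit, glmQLFTest, two-sided, Benjamini-Hochberg over the 15303 genes averaging 0.5 FPKM or more). The SE is the size of the log2 fold change divided by the square root of F. Alternatives included DESeq2 1.42.0 and limma 3.58.1 on log2(FPKM + 1) and log2(FPKM + 0.1). On simulated counts for these 15303 genes with 200 changed, edgeR recovered 22% of genes changed 2-fold and 68% of those changed 4-fold. For 8-fold and 16-fold changes it recovered 94% and 84%. The changed genes were drawn from those averaging at least 1 FPKM, so tested members with lower means, Itga1, Itgad and Lamb3, are not covered. Libraries of a group differed by a chi-square of 135 or more per degree of freedom, so none repeats another.

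The members and lists were chosen with earlier results of these data known. Values in each library are given for Itgb1, Lamb1, the most abundant gene of each role, members with an unadjusted p below 0.05 or groups that do not overlap, and up to 4 genes with the smallest p of each partner list, and other members are given in full where they bear on these. The values of 1 member are not reported here. No sequence is printed, since the reference supplied is of the mouse. Among partner genes with the same name, the one with more counts was kept.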

Additional observations from a re-analysis of the deposited data

How the results depend on the processing

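The count of integrin and laminin genes that passed was 0, and it stayed 0 with RLE and upper-quartile factors, library size alone, counts divided by 4, robust estimation, a mean of at least 1 FPKM, edgeR's own filter, no filter, both limma tests and the replicate block, and ranged from 0 to 0 with a library left out. It was 3 with DESeq2. At an unadjusted p below 0.05 there were 4 members with all libraries and, leaving out a library, 2 to 5. The partner genes that passed numbered 1, and 11 with DESeq2, 0 without a filter (Mfge8, adjusted p = 0.0505), 0 with the replicate block (Mfge8, adjusted p = 0.103) and, over fits on fewer samples that each leave out a library, 0 to 0. Of all genes 142 passed, 29 higher and 113 lower. This was 1767 with DESeq2 (731 higher, 1036 lower), 87 with edgeR's own filter, 8 without a filter and 1 with the replicate block, and leaving out a library gave 0 to 7. The cause of the difference between DESeq2 and edgeR was not tested.

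Of 501 values for 28 named genes under the alternatives, 472 kept direction and call, 12 gained a call, all with DESeq2, 8 lost it, all of Mfge8, and 9 turned direction, none of a called gene. Those 9 were small: Lamb2 had 0.00 with DESeq2 and 0.00 with RLE factors. With a library left out Lamb2 ranged from -0.12 to 0.12, Lamb1 from -0.01 to 0.20, Itga6 from -0.16 to 0.44, Itga9 from -0.41 to 0.10 and Itga11 from -0.66 to 0.09. Itgax ranged from -1.34 to -1.07, Itga5 from -0.60 to -0.39, Itga2b from 0.93 to 1.47, Itgb4 from 0.89 to 1.49 and Itgb5 from 0.26 to 0.48. Wider for their size were Lama1, from 0.43 to 1.14, Itgb1, from 0.09 to 0.38, Lamc1, from 0.05 to 0.37, Itgbl1, from 0.09 to 0.72, Itgae, from -0.39 to -0.05, Itga8, from -1.33 to -0.18, and Ptk2b, from -1.51 to -0.79. No label pairs libraries of the same number. The deviations of such libraries had correlations of -0.271, 0.147 and -0.008, and 1 of 6 samples correlated best with its own number. The simulated recovery shows that 2-fold changes of genes averaging at least 1 FPKM are often missed with 3 libraries a group. Members under 0.5 FPKM were not tested in the main comparison.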

Other observations

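2 partner genes outside those described above, chosen after their values were seen, were high in PM2.5 libraries 1 and 2 alone. Postn, which encodes the matrix protein periostin, had 16.1, 8.12 and 3.02 CPM in controls and 100, 66.3 and 4.04 CPM in PM2.5 (log2 fold change 2.65 ± 1.08, edgeR adjusted p = 0.230). Ntn1, which encodes netrin-1, a guidance protein related to laminins, had 5.38, 7.06 and 5.22 CPM in controls and 25.9, 21.8 and 5.89 CPM in PM2.5 (1.6 ± 0.53, edgeR adjusted p = 0.166). Neither passed edgeR's test, and DESeq2 called Ntn1. Vcam1, the ligand of the Itga4 chain on endothelium, had 3.73 to 7.45 CPM in controls and 10.7 to 12.7 CPM in PM2.5, with no overlap (0.90 ± 0.33, edgeR adjusted p = 0.197).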
